A study of Homo sapiens with 6 samples.

Results

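The genes described here carry the signals of interleukin 6 and interleukin 10, and they were followed in MM1S, a human cell line established from multiple myeloma, the cancer of plasma cells. The 10 genes are IL10, the receptor genes IL6R, IL6ST and IL10RA, the kinase genes JAK1 and JAK2, the transcription factor gene STAT3, the inhibitor genes SOCS1 and SOCS3, and the kinase gene PIM2. Every probe set annotated to 1 of these symbols alone was taken, which gave 33 of the 54613 probe sets on the arrays and 10 of 19775 genes, and no probe set was left out for a low value. RNA was measured on 6 single-colour arrays, 3 of MM1S cells labelled normoxia and 3 of MM1S cells labelled hypoxia, to find transcripts that differ between the conditions. The hypoxic exposure lasted 24 h, and the same treatment text stands on the normoxia arrays, so the groups came from the condition label. No genetic change or drug is named for either group, the sources used here do not give the oxygen level, and a single cell line in culture holds none of the marrow cells that surround myeloma cells in a patient.

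Interleukin 6 binds its receptor chain IL6R, and the pair then engages IL6ST (gp130), the chain that signals. Interleukin 10 binds IL10RA together with IL10RB. Both receptors activate kinases of the JAK family, which phosphorylate STAT3, and STAT3 enters the nucleus and switches on genes that include SOCS3, an inhibitor that feeds back on the pathway. Interleukin 6 is known as a growth and survival factor of myeloma cells, often supplied by marrow stroma.

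The regulatory sequences of 4 of these genes are shown first: the ligand gene IL10, which had the largest change among the genes with 1 probe set, the receptor gene IL6R, the only one of the 10 with probe sets that fell, and JAK2 and STAT3, in which every probe set rose. Each run is a RefSeq window (GRCh38.p14) from 250 bases before to 50 bases after an annotated start, written 5′ to 3′ on the gene's strand. Capitals mark ACGTG or GCGTG on either strand, the core bound by hypoxia-inducible factors, and a match is a description of letters, not a site.
IL10 (chr1:206772445-206772744, minus strand): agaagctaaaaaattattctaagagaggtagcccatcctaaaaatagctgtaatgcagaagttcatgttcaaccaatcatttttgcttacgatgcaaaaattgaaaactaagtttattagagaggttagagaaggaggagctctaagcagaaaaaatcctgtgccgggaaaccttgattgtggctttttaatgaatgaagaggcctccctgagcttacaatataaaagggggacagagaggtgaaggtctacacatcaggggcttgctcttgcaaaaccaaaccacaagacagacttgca
IL6R (chr1:154405093-154405392, plus strand): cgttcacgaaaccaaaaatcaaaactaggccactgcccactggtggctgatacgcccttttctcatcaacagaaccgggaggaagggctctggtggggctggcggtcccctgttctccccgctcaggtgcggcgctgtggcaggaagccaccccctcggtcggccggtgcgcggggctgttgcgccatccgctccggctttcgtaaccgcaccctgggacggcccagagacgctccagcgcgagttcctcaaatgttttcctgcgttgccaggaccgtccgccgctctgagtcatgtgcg
JAK2 (chr9:4984836-4985135, plus strand): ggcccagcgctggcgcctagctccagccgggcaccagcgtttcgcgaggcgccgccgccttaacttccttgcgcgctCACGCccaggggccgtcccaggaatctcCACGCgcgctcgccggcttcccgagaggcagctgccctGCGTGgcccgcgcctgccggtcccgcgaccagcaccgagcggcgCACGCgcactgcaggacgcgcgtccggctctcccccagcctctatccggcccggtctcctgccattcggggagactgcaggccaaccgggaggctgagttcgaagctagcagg
STAT3 (chr17:42388393-42388692, minus strand): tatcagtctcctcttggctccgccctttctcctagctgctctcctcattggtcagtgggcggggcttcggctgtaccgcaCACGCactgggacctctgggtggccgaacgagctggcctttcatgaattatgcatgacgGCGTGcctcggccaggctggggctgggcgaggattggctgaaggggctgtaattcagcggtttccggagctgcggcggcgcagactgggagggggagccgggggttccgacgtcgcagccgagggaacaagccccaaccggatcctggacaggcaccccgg
The IL10 and IL6R windows hold neither core, the JAK2 window holds GCGTG at 4 places, and the STAT3 window holds it at 2. JAK2 has 4 windows and IL10 has 3 in the table, of which 1 each is shown, and the JAK2 window shown holds the most matches of its 4. The windows of IL6ST, IL10RA and SOCS1, whose brightest probe sets rose, held neither core. Over the 18 windows of the 10 genes, some of them overlapping, 9 (50%) held ACGTG or GCGTG, against 48.4% of all 35116 windows of that length. The first 2 cores differ only in their first letter. The STAT core TTCNNNGAA, which reads the same on both strands, was in 0 of the 18, against 7.66% of all windows.

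The arrays of the conditions were distinct over the whole table, and the cells had the transcripts of plasma cells. Array medians were 54.95 to 56.8 in normoxia and 57.6 to 60.1 in hypoxia, so every hypoxia median was above every normoxia median. Log2 values correlated across probe sets at 0.988 to 0.993 for arrays of 1 condition and at 0.962 to 0.968 for arrays of different conditions. Probe sets are not independent replicates, so these correlations only describe the arrays. The hypoxia markers NDRG1, P4HA1, HILPDA, PFKFB4 and VEGFA all rose. Calls in this paragraph come from a limma fit over 19775 genes, 1 probe set a gene, with the p adjusted over those genes. In that fit 37.4% of all genes were called (16.9% rose and 20.6% fell). Of 12 plasma cell markers, 11 had a mean above the median probe set, and CD27 did not. Their summed intensity was 70614 to 72606 in normoxia and 68433 to 70715 in hypoxia, while 5 of the 12 fell (CD38 by 0.71, FKBP11 by 0.43, SLAMF7 by 0.34, SDC1 by 0.30 and MZB1 by 0.26) and 2 rose (XBP1 by 0.22 and POU2AF1 by 0.19). Summed intensities of markers of other cell types were 927 to 1103 and 719 to 793 for T cells (6 markers), 150 to 158 and 150 to 187 for myeloid cells (4 markers), 397 to 467 and 339 to 486 for stroma (6 markers), and 190 to 209 and 218 to 255 for epithelium (5 markers). Among the T cell markers TRAT1 fell from 756 to 494 and CD3D rose from 98.3 to 132, and among the epithelial ones EPCAM rose from 24.8 to 67.3; the other 4 T cell and 4 epithelial markers did not pass, nor did any myeloid or stromal one. The 3 erythroid markers summed to 3516 to 3839 in normoxia and 2036 to 2128 in hypoxia, nearly all of it from HBB and HBD, which both fell. No marker was listed at 0, but CD8A, CD14, LUM and KRT19 had group means under 11, and CD8A and KRT19 were listed at exactly 1 on 1 array each. The labels name only MM1S cells, and neither the source of these marker signals nor its part in the results below was tested. Nothing in the labels says that the 3 arrays of a group came from separate cultures, so the p-values below rest on the spread from array to array alone, which may be technical. In bulk RNA, fewer cells of a kind and less RNA per cell cannot be told apart.

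Across the 33 probe sets, more were higher in hypoxia than lower, and the brightest probe set of 9 of the 10 genes rose. Levels are linear intensities in arbitrary units, changes are differences in log2(intensity + 16), hypoxia minus normoxia, in which a dim probe set changes by less than its signal does, and "rose" or "fell" means a limma p under 0.05 after Benjamini-Hochberg adjustment over all 54613 probe sets. For the markers above and the pathway genes below, the adjustment was over the 19775 genes instead. Of the 33, 16 rose, 3 fell and 14 did not pass, so 57.6% were called, against 30.7% of all probe sets. In each direction these were 48.5% that rose against 15.5% of all, and 9.09% that fell against 15.2% of all. The median change of the 33 was 0.39, against 0.017 over all probe sets. With each array centred on its median, 13 of the 33 rose and 3 fell. Of all probe sets, 7289 then rose and 9583 fell, against 8481 and 8289 without centring. The groups did not overlap in 21 of the 33 (17 with hypoxia above and 4 with hypoxia below), against 42.5% of all probe sets. The 10 genes were chosen with earlier results of these data known, so these shares describe the set and do not test it. Calls lay mostly among brighter probe sets: 15 rose and 3 fell of the 23 whose mean log2 value lay above that of the median probe set (an intensity of 57.2), where 52.0% of all such probe sets were called (25.7% rose and 26.3% fell). Of the 10 dimmer ones, 1 rose and 9 did not pass, where 9.44% of all were called and 5.36% rose. At such intensities signal and background cannot be separated, so the dimmer ones are a poor measure of their genes. The mean that sorted probe sets took in the arrays of both conditions, so a change can itself move a probe set between the classes. JAK2 1562031_at counted as brighter with means of 36.1 in normoxia and 391 in hypoxia. STAT3 243213_at, at 34.4 and 68.8, counted as dimmer. The split of calls by brightness is thus not independent of the changes. Each probe set has its own response to its transcript, so no order of transcript abundance is read from intensities of different probe sets; where a log2 difference between a pair of probe sets is given, it is compared only between the conditions.

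**Figure D1:**
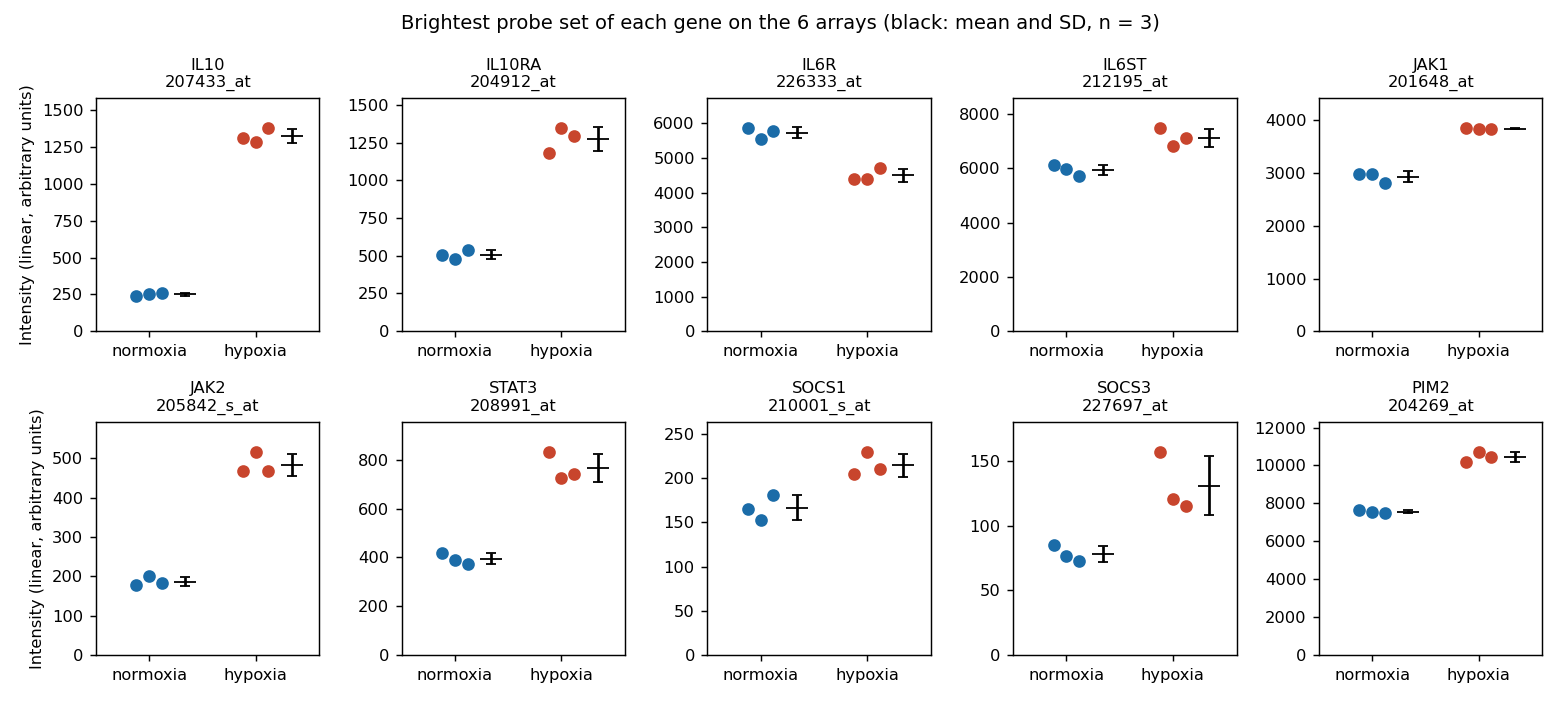
Intensity (linear axis from 0, arbitrary units) of the brightest probe set of each gene on the 3 normoxia arrays (blue) and the 3 hypoxia arrays (red), with the mean and SD in black (n = 3). The 2 groups are apart in all 10 panels: IL6R is lower in hypoxia, and the other 9 are higher.

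The ligand gene IL10, which encodes a cytokine that restrains inflammation and signals through STAT3, had the largest change among the 9 genes other than JAK2. Its only probe set, 207433_at, read 237, 254 and 261 on the normoxia arrays and 1308, 1285 and 1376 on the hypoxia arrays. The hypoxia arrays lay close together and far above every normoxia array. The rise was 2.33 on the log2 scale (95% confidence interval 2.15 to 2.51, limma adjusted p = 5.27e-05), or 5.02-fold. It held in all 14 alternative settings, between 2.14 and 2.40.

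The receptor chain that binds this cytokine, IL10RA, rose as well. Its only probe set, 204912_at, read 508, 481 and 535 in normoxia and 1183, 1345 and 1293 in hypoxia. The groups were apart, and the change was 1.30 (95% confidence interval 1.09 to 1.50, limma adjusted p = 0.000153), or 2.46-fold. IL10RB, the partner chain that several receptors of this family share, also rose in the fit over genes, from 1137 ± 30.7 to 1582 ± 31.6 (SD, n = 3; log2 change 0.47, limma adjusted p = 0.00104). Thus the ligand gene and both chains of its receptor were higher in hypoxia, by unequal amounts.

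IL6R, the chain that binds interleukin 6, was lower in hypoxia by each of its 3 probe sets. The brightest, 226333_at, read 5857, 5563 and 5775 in normoxia and 4399, 4395 and 4706 in hypoxia, a change of -0.35 (95% confidence interval -0.52 to -0.18, limma adjusted p = 0.0112). The second, 205945_at, read 2793, 2691 and 2634 against 1670, 1562 and 1698, a change of -0.71 (95% confidence interval -0.89 to -0.54, limma adjusted p = 0.000681). The dimmest, 217489_s_at, read 144, 126 and 103 against 69.9, 53.2 and 48.4, a change of -0.94 (limma adjusted p = 0.00517), with hypoxia values near the median probe set. All 3 hypoxia arrays lay below all 3 normoxia arrays in each case, and each fall passed in all 14 alternative settings. The log2 value of 205945_at minus that of 226333_at was -1.08 ± 0.044 in normoxia and -1.44 ± 0.0495 in hypoxia (SD, n = 3), with all hypoxia arrays lower (exact two-sided permutation test over arrays, p = 0.1, the smallest that 3 against 3 allow, and 0.1 after adjustment over the 3 such differences tested, all chosen after the values were seen).

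IL6ST, the signalling chain that receptors of the interleukin 6 family share, did not follow IL6R downward, and its 7 probe sets gave a mixed reading. The brightest, 212195_at, read 6116, 5982 and 5734 in normoxia and 7474, 6810 and 7115 in hypoxia, so the groups were apart and the rise was 0.26 (95% confidence interval 0.084 to 0.44, limma adjusted p = 0.0388). The next, 212196_at, read 1042, 1048 and 923 against 1451, 1317 and 1174, a rise of 0.38 (95% confidence interval 0.12 to 0.64, limma adjusted p = 0.0388). Both calls are marginal. That of 212195_at was lost without any 1 of the 6 arrays (0.23 to 0.29, limma adjusted p = 0.058 to 0.121) and that of 212196_at without any 1 but the hypoxia array numbered 2 (0.31 to 0.41, limma adjusted p = 0.0741 to 0.118). With each array centred on its median, both were lost, at 0.20 (limma adjusted p = 0.138) and 0.31 (limma adjusted p = 0.0987), as they were with a pseudocount of 1 (limma adjusted p = 0.0582 and 0.0596).

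The other 5 probe sets of IL6ST did not pass, and their groups overlapped. The 204863_s_at probe set read 573, 897 and 814 in normoxia and 791, 1183 and 1286 in hypoxia, a difference of 0.50 with a wide interval (-0.090 to 1.09). The 211000_s_at probe set read 338, 484 and 435 against 471, 659 and 587, a difference of 0.44 (95% confidence interval 0.010 to 0.86, limma adjusted p = 0.12). In both, the array numbered 0 was the lowest of its group. The differences of the remaining 3 were -0.023, 0.40 and -0.072, the last 2 from probe sets with means under 20. The mean of all 7 differed by 0.27 and did not pass (limma adjusted p = 0.146). Which probe sets passed depended on the unpaired fit. With the replicate number as a block, 204863_s_at, 211000_s_at and 234967_at passed (limma adjusted p = 0.0213, 0.0138 and 0.0432). The call of 212195_at was then lost (limma adjusted p = 0.0582). The labels do not tie arrays of the same number together. The log2 value of IL6ST 212195_at minus that of IL6R 226333_at was 0.052 ± 0.058 in normoxia and 0.66 ± 0.0885 in hypoxia (SD, n = 3), with the groups apart (exact two-sided permutation test, p = 0.1, the smallest possible). That difference too was chosen after the values were seen, so it only describes the arrays.

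**Figure D2:**
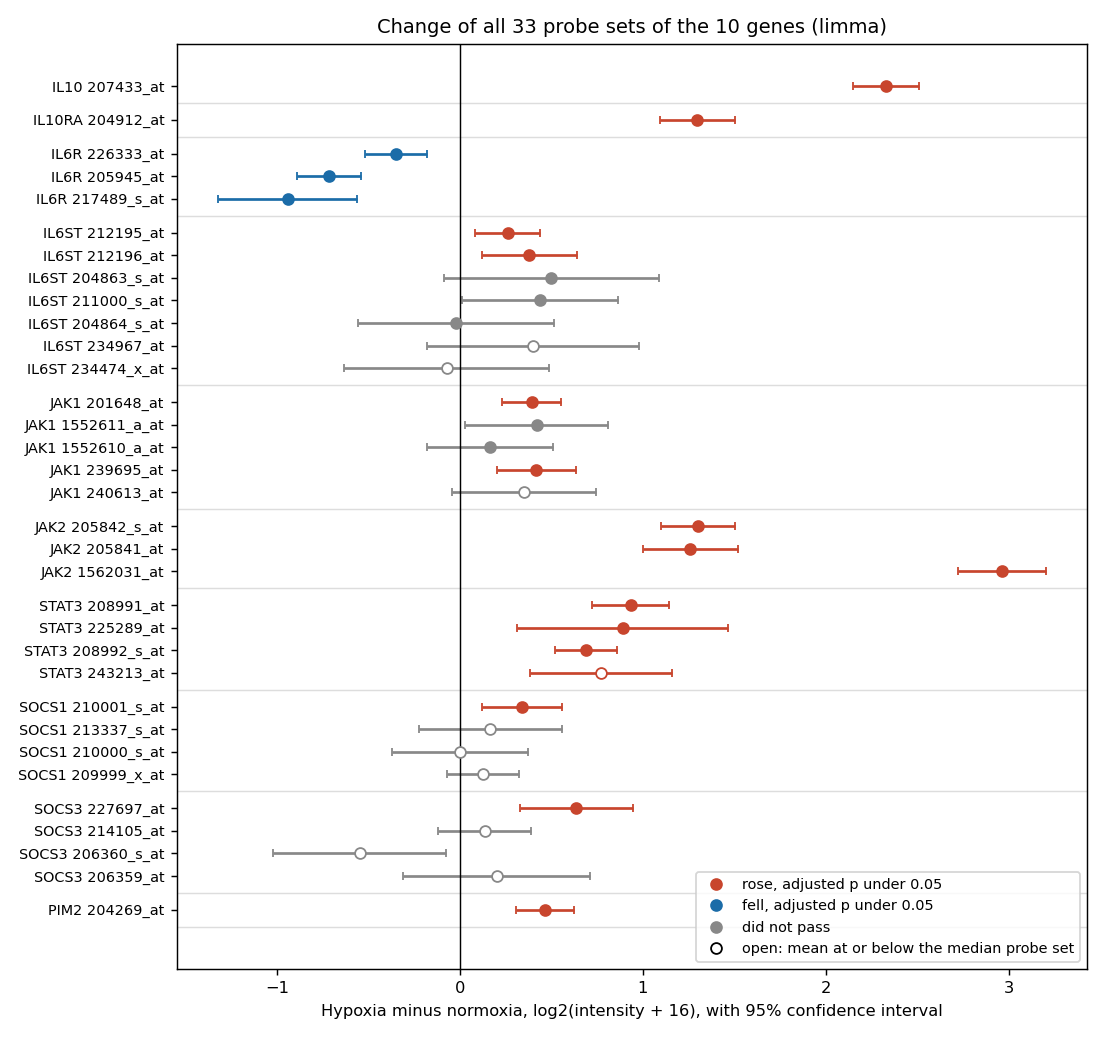
Change of each of the 33 probe sets, hypoxia minus normoxia in log2(intensity + 16), with its 95% confidence interval from limma. Red points rose, blue points fell and grey points did not pass, and open points have a mean at or below the median probe set. All IL6R points lie left of 0, all JAK2 and STAT3 points lie right of it, and the IL6ST, SOCS1 and SOCS3 points are spread around smaller changes.

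JAK1, a kinase bound to both receptors, showed a small rise. The brightest probe set, 201648_at, read 2985, 2991 and 2807 in normoxia and 3850, 3846 and 3840 in hypoxia, a rise of 0.39 (95% confidence interval 0.23 to 0.55, limma adjusted p = 0.00574). The hypoxia arrays differed from each other by less than the normoxia arrays did. The 239695_at probe set read 83.8, 78.9 and 79.0 against 100.5, 121.9 and 117.3, a rise of 0.42 (limma adjusted p = 0.0143), whose call was lost without the normoxia array numbered 1 or 2 or the hypoxia array numbered 2 (0.40, 0.40 and 0.39, limma adjusted p = 0.0533, 0.0532 and 0.0541). The other 3 did not pass, at 0.42, 0.16 and 0.35. For the first of these, 1552611_a_at, the groups did not overlap (1174 to 1608 against 1667 to 2186), and it passed with an intensity trend in limma (adjusted p = 0.0448) and with dim probe sets left out (adjusted p = 0.0465).

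JAK2, a kinase that gp130 and other cytokine receptors use, rose by all 3 of its probe sets, but by very different amounts. The 205842_s_at probe set read 177, 200 and 182 in normoxia and 466, 516 and 467 in hypoxia, a rise of 1.30 (95% confidence interval 1.10 to 1.50, limma adjusted p = 0.000149). The 205841_at probe set read 116, 144 and 111 against 313, 309 and 325, a rise of 1.26 (95% confidence interval 1.001 to 1.52, limma adjusted p = 0.000364). These 2 probe sets changed by nearly the same amount, 2.47-fold and 2.39-fold.

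The third JAK2 probe set, 1562031_at, had the largest change of the 33. It read 33.6, 38.6 and 36.2 in normoxia, below the median probe set, and 345, 412 and 417 in hypoxia, a rise of 2.96 (95% confidence interval 2.72 to 3.20, limma adjusted p = 5.28e-05), or 7.80-fold. Because the normoxia values may be background, the size of this change is uncertain: it was 3.40 with a pseudocount of 1 and 2.18 with one of 64. Its log2 value minus the mean of the other 2 was -1.68 ± 0.0823 in normoxia and -0.0021 ± 0.125 in hypoxia (SD, n = 3), with the groups apart (exact two-sided permutation test, p = 0.1, the smallest possible). That difference was chosen after the values were seen, so it only describes the arrays. Which JAK2 transcripts this probe set matches was not examined. Taking each row relative to its normoxia mean, the 3 other genes nearest to it over the 6 arrays by Euclidean distance were PCAT6 (distance 0.29, change 2.89), EPHA1-AS1 (0.34, change 2.92) and YPEL2 (0.46, change 2.75), which is a likeness in size of change only.

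STAT3, the transcription factor on which both cytokines converge, rose by all 4 of its probe sets. The 208991_at probe set read 418, 387 and 375 in normoxia and 831, 726 and 741 in hypoxia, a rise of 0.93 (95% confidence interval 0.72 to 1.14, limma adjusted p = 0.000522), or 1.91-fold. The 208992_s_at probe set read 192, 182 and 191 against 315, 326 and 301, a rise of 0.69 (95% confidence interval 0.52 to 0.86, limma adjusted p = 0.000706). In both, the groups were far apart relative to their spread. The 225289_at probe set read 451, 353 and 349 against 1028, 568 and 640, a rise of 0.89 with a wider interval (0.31 to 1.47, limma adjusted p = 0.033), and 1 hypoxia array stood well above the other 2. Its call was lost without the normoxia array numbered 0, 1 or 2 (1.005, 0.84 and 0.83, limma adjusted p = 0.0502, 0.106 and 0.102) or the hypoxia array numbered 2 (0.97, limma adjusted p = 0.0622), and with a pseudocount of 1 (0.91, limma adjusted p = 0.0526). The dim 243213_at probe set read 23.2, 36.6 and 43.3 against 65.9, 67.4 and 73.1, a rise of 0.77 (limma adjusted p = 0.0127), or 0.44 with a pseudocount of 64.

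**Figure D3:**
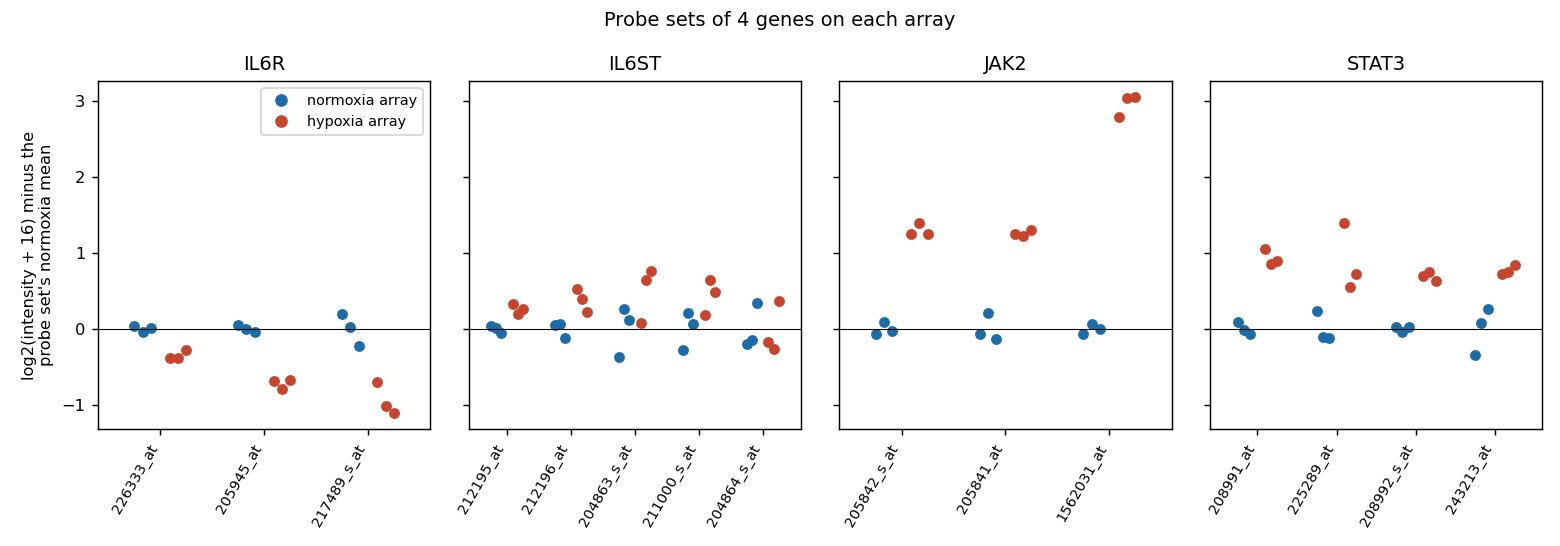
Log2(intensity + 16) on each array minus the normoxia mean of the same probe set, for the probe sets of IL6R, IL6ST, JAK2 and STAT3 that were called or whose mean lay above the median probe set (blue normoxia, red hypoxia, 3 arrays each). IL6R points fall below 0 in hypoxia, 3 of the 5 IL6ST probe sets overlap between groups, and JAK2 1562031_at stands near 3 while the other 2 JAK2 probe sets stand near 1.3.

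The inhibitor genes were read mostly by dim probe sets, and 1 probe set of each rose. SOCS3, which blocks signalling at gp130, read 84.9, 76.5 and 72.6 in normoxia and 157, 121 and 115 in hypoxia on 227697_at, its only probe set above the median. This rise was 0.64 (95% confidence interval 0.33 to 0.95, limma adjusted p = 0.011), with the groups apart. The other 3 SOCS3 probe sets were at means of 4.37 to 42.4 and differed by 0.13, -0.55 and 0.20. The second of them, 206360_s_at, read 46.6, 38.0 and 42.5 against 21.3, 37.1 and 15.9, opposite to 227697_at. It did not pass (limma adjusted p = 0.0846) but did without the hypoxia array numbered 1 (-0.76, limma adjusted p = 0.00981). The mean of the 4 probe sets differed by 0.11 and did not pass (limma adjusted p = 0.583).

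SOCS1, which binds JAK kinases directly and inhibits them, read 165, 153 and 181 in normoxia and 205, 230 and 210 in hypoxia on 210001_s_at, a rise of 0.34 (95% confidence interval 0.12 to 0.56, limma adjusted p = 0.0315). The groups did not overlap. The call was lost without the normoxia array numbered 0 or 1 (0.34 and 0.29, limma adjusted p = 0.0817 and 0.0966), without the hypoxia array numbered 1 or 2 (0.29 and 0.35, limma adjusted p = 0.0962 and 0.0762) and with median centring (0.27, limma adjusted p = 0.0541). The other 3 SOCS1 probe sets had group means of 1 to 28.9 and did not pass, at differences of 0.17, -0.00088 and 0.13. The mean of the 4 probe sets differed by 0.16 and did not pass (limma adjusted p = 0.133).

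PIM2, a serine/threonine kinase that promotes survival of myeloma cells and is induced by cytokines, was bright in both conditions. Its only probe set, 204269_at, read 7670, 7521 and 7500.4 in normoxia and 10205, 10709 and 10440.05 in hypoxia. Every hypoxia array lay above every normoxia array, by far more than the spread within a group, and the rise was 0.47 (95% confidence interval 0.31 to 0.62, limma adjusted p = 0.00251), or 1.38-fold. It passed in all 14 alternative settings, between 0.40 and 0.52.

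The other genes of the pathway were taken from lists made by role, with 1 probe set a gene, the brightest, in a fit over 19775 genes of which 37.4% were called (16.9% rose and 20.6% fell). These lists were chosen with earlier results of these data known, so the shares below describe them and test nothing. The lists held 87 genes, of which 10 are not analysed here. Of the 77 measured, 26 rose, 14 fell and 37 did not pass, so 51.9% were called. Of these 77, 58 lay above the median probe set. The 51.9% covers all 77, so it is not like the 52.0% of brighter probe sets called in the fit over probe sets. When only features above the median were fitted, 26 of these 58 rose and 14 fell. In the fit over probe sets of that setting, 8357 of 27306 rose and 8371 fell. The features of that setting were picked by their mean over both conditions, so a change can help a feature to enter. BCL6 was kept with means of 33.7 in normoxia and 157 in hypoxia. The median change of the 77 was 0.12, against -0.00016 over all genes. Read the same way, 9 of the 10 member genes rose and 1 fell, and the brightest probe sets of all 10 lay above the median probe set. The count of 26 was 17 without the normoxia array numbered 1.

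None of the 13 other ligand genes measured passed in limma, and 1 (LIF) had an unadjusted p under 0.05. Most of the 13 had a mean at or below the median probe set, where 9.44% of all probe sets were called. The rest had group means of 58.7 to 100. IL6 itself was at 58.7 ± 14.7 in normoxia and 66.4 ± 11.3 in hypoxia (SD, n = 3), a difference of 0.15 (95% confidence interval -0.27 to 0.57, limma adjusted p = 0.568), close to the median probe set, so that its signal cannot be told from background. LIF was dim as well, at 32.0 ± 11.5 against 13.0 ± 9.75 (limma adjusted p = 0.0994). Of the ligand genes measured, IL10 was therefore the one with a call, and for the dim ones a lack of change cannot be read from this.

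Of 10 other receptor chains, 3 rose, 2 fell and 5 did not pass. IL11RA, the receptor chain of interleukin 11, rose from 267 ± 15.1 to 435 ± 36.8 (0.67, limma adjusted p = 0.00138), beside IL10RB given above. LIFR rose by 0.44 (0.24 with a pseudocount of 64) at intensities of 37.7 and 55.9, below the median probe set, and its call was lost with a pseudocount of 1 or an intensity trend (limma adjusted p = 0.067 and 0.0677), when the arrays were centred or quantile normalized (limma adjusted p = 0.0681 and 0.0674), when its probe sets were averaged (0.13, limma adjusted p = 0.328) and without the hypoxia array numbered 0, 1 or 2 or the normoxia array numbered 1 (0.42 to 0.47, limma adjusted p = 0.0865 to 0.119). IL27RA, which pairs with gp130 to bind interleukin 27, fell from 925 ± 34.3 to 495 ± 22.5 (-0.88, limma adjusted p = 0.000176), and by less with its probe sets averaged (-0.53, limma adjusted p = 0.00318). IL22RA1 fell from 140 ± 11.1 to 101 ± 11.9 (-0.43, limma adjusted p = 0.0167), a call lost without the normoxia array numbered 0 or the hypoxia array numbered 1 or 2 (-0.39 to -0.37, limma adjusted p = 0.0513 to 0.0596). Among 3 genes tied to receptor shedding, the protease gene ADAM17 rose by 0.45, ERAP1 fell by 0.36 (-0.067 and not passed when its probe sets were averaged), and ADAM10 was at -0.095. The call of ADAM17 was lost without the hypoxia array numbered 0 or 1 or the normoxia array numbered 1 or 2 (0.38 to 0.46, limma adjusted p = 0.0512 to 0.0628), and the mean of its probe sets rose by 0.27 (limma adjusted p = 0.0199).

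Of 6 other kinases and STATs, 3 rose, 1 fell and 2 did not pass. STAT4 rose from 203 ± 17.3 to 385 ± 27.6 (0.87, limma adjusted p = 0.000578), STAT5A from 119 ± 3.09 to 218 ± 12.4 (0.79, limma adjusted p = 0.000263), and STAT6 by 0.29. JAK3 fell by 0.24 (limma adjusted p = 0.0167), a call lost without the normoxia array numbered 0 or 2 or the hypoxia array numbered 2 (-0.24 to -0.23, limma adjusted p = 0.0519 to 0.0639) and when its probe sets were averaged (-0.16, limma adjusted p = 0.44). TYK2, the kinase bound to IL10RB, was at 962 ± 48.9 and 870 ± 31.0 (-0.14, limma adjusted p = 0.151).

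The 15 other inhibitors held both directions, with 8 that rose, 4 that fell and 3 that did not pass. PIAS3, an inhibitor of STAT3 that acts in the nucleus, rose from 182 ± 27.8 to 501 ± 57.4 (1.39, limma adjusted p = 0.000531). The phosphatase genes PTPN2 and PTPN6 rose by 0.77 and 0.50, and PIAS1 by 0.58; with its probe sets averaged, PTPN2 was at 0.22 (limma adjusted p = 0.0345). SOCS2 fell from 1341 ± 37.6 to 739 ± 27.7 (-0.85, limma adjusted p = 0.000159) and SOCS4 from 827 ± 45.3 to 470 ± 13.8 (-0.79, limma adjusted p = 0.000279). PTPN11 and PIAS2 fell by 0.39 and 0.35. The call of PTPN6 was lost without the normoxia array numbered 1 or 2 or the hypoxia array numbered 1 (0.44 to 0.497, limma adjusted p = 0.0566 to 0.0635), and that of PIAS2 without any 1 normoxia array (-0.37 to -0.34, limma adjusted p = 0.0713 to 0.0942). The SOCS genes thus went both ways, with SOCS2 and SOCS4 lower while SOCS5 and SOCS7 were among the 8 that rose. These rises were smaller than the falls, at 0.22 for SOCS5 and 0.41 for SOCS7 (limma adjusted p = 0.0205 and 0.0174). Whether the calls of SOCS5 and SOCS7 hold in the alternative settings was not examined.

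On the branch of the receptors that runs through MAP kinases and phosphoinositide 3-kinase, 5 of 11 genes rose, 1 fell and 5 did not pass. The adaptor gene GAB2 rose from 170 ± 23.3 to 554 ± 35.1 (1.62, limma adjusted p = 0.000134), the kinase gene MAPK3 from 408 ± 15.8 to 868 ± 26.9 (1.06, limma adjusted p = 8.31e-05), and GAB1 and PIK3R1 by 0.61 and 0.29. HRAS fell by 0.60. The call of PIK3R1 was lost without any 1 array but the hypoxia array numbered 0 (0.23 to 0.33, limma adjusted p = 0.06 to 0.127), with a pseudocount of 1 (limma adjusted p = 0.0564), with median centring (limma adjusted p = 0.0755) and when its probe sets were averaged (0.072, limma adjusted p = 0.502). Averaging put GAB1 at 0.34 (limma adjusted p = 0.00446).

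Genes known as STAT3 targets were split: of 19, 6 rose, 5 fell and 8 did not pass, with a median change of 0.011. BCL6, a transcriptional repressor, rose from 33.7 ± 0.827 to 157 ± 23.1 (1.79, limma adjusted p = 9.97e-05), from a level below the median probe set. The size of this rise was 0.82 when its probe sets were averaged and 1.17 with a pseudocount of 64, and it passed in both. PIM1, a relative of PIM2, rose from 192 ± 3.40 to 342 ± 22.4 (0.78, limma adjusted p = 0.000315), the angiogenic factor gene VEGFA by 0.70 and NFIL3 by 0.56. CCND1, a cyclin of the G1 phase, fell from 686 ± 11.0 to 190 ± 21.5 (-1.78, limma adjusted p = 5.97e-05). MYC fell by 1.28, CEBPB by 0.53 and FOS, with means under 12, by 0.52. The size for FOS depended on the pseudocount, at -1.56 with 1 and -0.17 with 64.

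**Figure D4:**
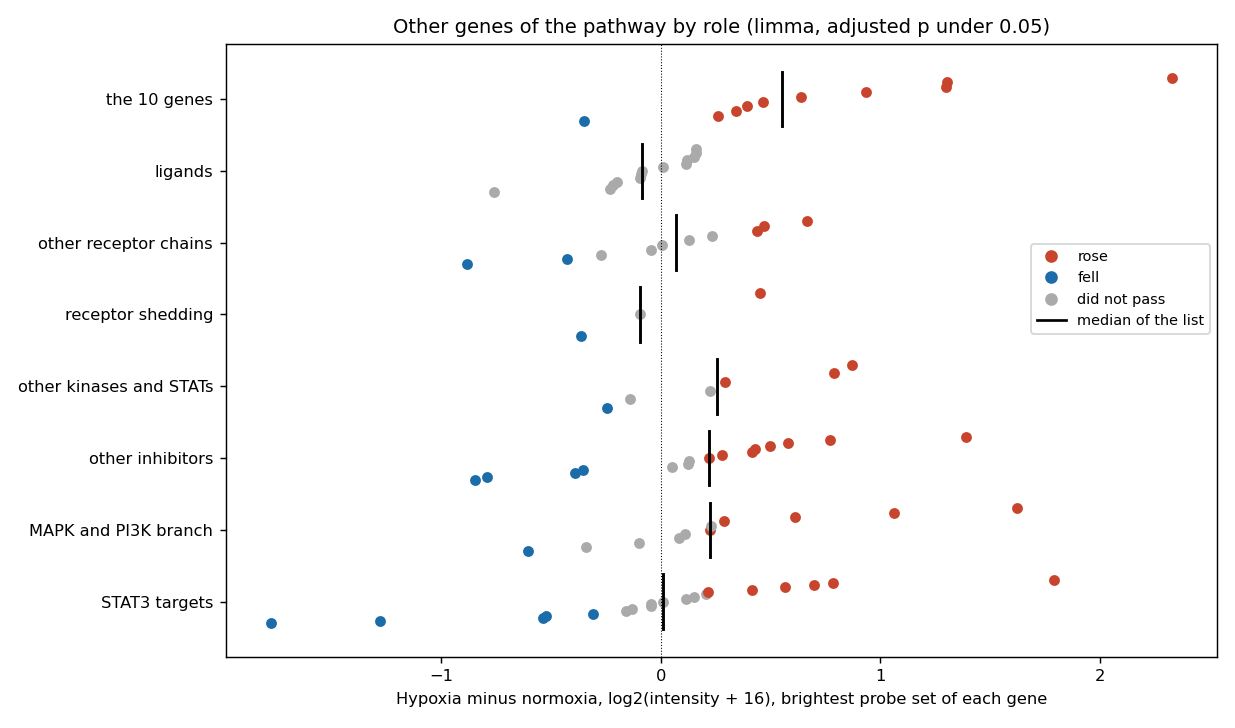
Change of each gene by role, hypoxia minus normoxia in log2(intensity + 16) of its brightest probe set, with the list's median as a black bar. Red points rose, blue points fell and grey points did not pass. The ligand row is grey throughout, while the STAT3 targets reach from -1.78 (CCND1) to 1.79 (BCL6).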

How the data were processed

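The values are linear intensities, 1 for each probe set on each array, as deposited. The sources used here do not give how the authors corrected, summarised and scaled them. Per the labels' protocols, RNA was isolated with the RNeasy kit and labelled as biotinylated cRNA. Names of probe sets came from the platform annotation, and 41037 of 41091 with 1 symbol were updated through a RefSeq gene table; all 10 members matched 1 of its promoter entries or more. Intensities were turned into log2(intensity + 16) and fitted in limma 3.58.1 (lmFit, eBayes; R 4.3.3), hypoxia against normoxia, two-sided, with no covariate and Benjamini-Hochberg adjustment over every feature fitted: all 54613 probe sets for the members, and the brightest single-symbol probe set a gene for the 77 other pathway genes. Calls of the cell type and hypoxia markers came from the fit over genes as well. The confidence level was 95%. The fit was run on simulated data with independent noise, in which only probe sets above the median were given a change. That simulation does not cover changes in dim probe sets or arrays that depend on each other. The members and lists were chosen with earlier results of these data known. Named by rule were all members, up to 4 genes a list in each direction with the largest change past the threshold, IL6, TYK2, 5 hypoxia genes and the 3 genes nearest to the probe set with the largest change; LIF, ADAM10, SOCS5, SOCS7 and the cell type markers CD27, CD38, FKBP11, SLAMF7, SDC1, MZB1, XBP1, POU2AF1, TRAT1, CD3D, EPCAM, CD8A, CD14, LUM, KRT19, HBB and HBD were named after their values were seen. Values of 2.44% to 2.58% per array were exactly 1. Of the 15 pairs of arrays, none shared more than 1.23% identical values, so no array was a copy of another, and each counted as 1 sample. That check cannot tell separate cultures from repeated arrays of the same RNA. The number of arrays limits the precision. Alternatives were the pseudocount, scaling, a filter on dim features, the intensity trend, the replicate block, single-symbol probe sets, the mean of probe sets and each array left out.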

Additional observations from a re-analysis of the deposited data

How the results depend on the processing

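Over 14 alternative settings, 415 of 452 comparisons of the 33 probe sets kept their direction and their side of the threshold, 30 lost a call, 7 gained one and 0 reversed; the calls lost were those of IL6ST 212195_at and 212196_at, SOCS1 210001_s_at, STAT3 225289_at and JAK1 239695_at. The 16 probe sets that rose numbered 11 to 14 with 1 array left out and 13 to 18 in the other settings. The 3 that fell numbered 3 to 4 and 3. Pathway genes that rose numbered 17 to 24 with 1 array left out, and those that fell 10 to 15; in the other settings these were 20 to 27 and 14 to 16, and with each array centred on its median 20 rose and 16 fell, against 26 and 14. Of the 34 pathway genes named by rule, 26 kept their call or lack of one throughout, and the others lost a call in some settings (35 comparisons, 0 reversed). With the replicate number as a block (replicate block), 18 probe sets rose and 3 fell, and 26 and 15 pathway genes did; IL6ST 204863_s_at, 211000_s_at and 234967_at and JAK1 1552611_a_at gained a call, and IL6ST 212195_at and SOCS1 210001_s_at lost theirs. The labels do not tie arrays of one number together, and pairing was not assumed: deviations from the group means correlated at 0.21, 0.0082 and 0.19 for the numbers 0, 1 and 2, and 5 of 6 arrays correlated best with their own number, a hint from the data and not the design. Intensities near the median probe set cannot be told from background, which limits SOCS1, SOCS3 and IL6. Other background corrections were not run, since no probe-level values were used.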
